A study of Mus musculus with 4 samples.

Results

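A set of 10 imprinted genes, H19, Igf2, Kcnq1ot1, Cdkn1c, Snrpn, Dlk1, Meg3, Peg3, Igf2r and Gnas, was followed in replication profiles of mouse embryonic stem cells, wild type or lacking Snf2h, an ATPase that slides nucleosomes. The windows of the profile whose midpoint lay within 500 kb of a gene were taken, and overlapping sets were merged, so that the 10 genes gave 6 domains. These held 304 of the 109033 windows of the table, and 295 of the 304 had a value in all 4 libraries. The domain from H19 to Cdkn1c on chromosome 7 held 4 of the genes and the domain from Dlk1 to Meg3 on chromosome 12 held both of its genes. Snrpn and Peg3 (chromosome 7), Igf2r (chromosome 17) and Gnas (chromosome 2) each had a domain of their own. In GRCm38 the domains run from 142075530 to 143961059 (H19 to Cdkn1c, 75 windows), 59482495 to 60950177 (Snrpn, 59 windows) and 6203892 to 7230462 (Peg3, 41 windows) on chromosome 7. The others run from 108952485 to 110071729 on chromosome 12 (Dlk1 to Meg3, 44 windows), 12182406 to 13269706 on chromosome 17 (Igf2r, 43 windows) and 173784320 to 174846744 on chromosome 2 (Gnas, 42 windows).

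The profiles came from TrAEL-seq, which captures free DNA 3′ ends and thereby reads the direction of replication forks. All cells were embryonic stem cells of the line 129S6/SvEvTac, grown without feeder cells on gelatin with serum and LIF. There were 2 libraries labelled wild type (WT) and 2 labelled as a Snf2h knockout (KO), from duplicate cultures. No other treatment or allele is named, and how the knockout was made and whether the KO libraries share a clone are not given in the sources used here. Expression was not analysed here, so the labelled cell type and the loss of Snf2h were not checked. The value per 100 kb window, here called polarity, is the imbalance of the captured ends between the strands, in percentage points (points), with a bound of 50 in either direction.

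Imprinted genes are expressed mainly from the copy inherited from one parent. They lie in clusters in which differential DNA methylation and long non-coding RNAs keep one parental copy silent, and many of them act on fetal and placental growth. Such clusters are classically described as replicating at different times on the maternal and paternal chromosome. Polarity sums both parental copies, so it has no information on which copy a fork was on. Along a chromosome, polarity turns one way where forks leave a zone of initiation and the other way where they meet. Because the strand counted as positive is not stated, the turns are named only by their sign: a rise goes from lower to higher polarity with increasing coordinate, and a fall goes the other way.

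Replicate libraries differed in amplitude. The SD of polarity over 23672 autosomal windows spaced 100 kb was 14.6 and 12.8 points in WT replicates 1 and 2, and in KO 19.5 points in replicate 1 and 14.5 points in replicate 2. KO replicate 1 was thus the highest of the 4, and many of the values below are also given after each library was centred on its mean and divided by its SD (standardised). Between 7.01% and 7.57% of all windows had no value in a library. In 5 domains none was missing, whereas of the 59 windows around Snrpn 3 and 5 had no value in WT and 8 and 9 had none in KO. For WT replicate 2 the label gives the index of WT replicate 1 and the data column another, and the column was matched by the sample name that both share.

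In the limma fit with default eBayes and no covariate, to all 4 libraries on the deposited scale, no window of the 6 domains differed between the genotypes past the adjusted threshold. Of 73 windows spaced 100 kb, 0 had a limma adjusted p-value under 0.05, whereas 0.0549% of all 23672 windows tested did. At an unadjusted p-value under 0.05 in limma there were 9 of the 73 (12.33%), 7 with higher and 2 with lower polarity in KO, beside 12.2% of all windows (6.10% higher and 6.11% lower). After each library was standardised the unadjusted count was 8, split into 5 higher and 3 lower, beside 14.4% of all windows, and 0 passed the adjusted threshold, beside 0.372%. Over all 295 overlapping windows 0 passed (0.0760% of the autosomes) and 30 did unadjusted (12.1%), and with limma's trend and robust options 1 window passed (1.28%), with 8 unadjusted (12.5%). The counts moved with single libraries: leaving out WT replicate 1 gave 0 adjusted and 2 unadjusted calls (0.0338% and 4.13% of all windows), WT replicate 2 gave 0 and 1 (0.0296% and 2.94%), KO replicate 1 gave 2 and 14 (5.79% and 19.8%), and KO replicate 2 gave 12 and 22 (20.2% and 34.9%). In these fits 1 genotype has a single library, which is assumed to vary like those of the other genotype, so the counts show only how far each library sets the calls. The median absolute difference between genotype means was 4.78 points in the domains and 4.44 points over all windows. After standardising it was 0.234 SD in the domains and 0.237 SD over all windows. With all 4 libraries, the shares at the unadjusted threshold and the median differences thus lay close to those of the autosomes. The split by direction varied with the fit. It was 9 higher and 2 lower with replicate number as a block, and 5 and 4 with this block and standardising. Over overlapping windows it was 22 and 8, and with a flank of 1 Mb 11 and 8. Of the 7 higher windows of the first fit, 3 lay in the Peg3 domain.

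**Figure D1:**
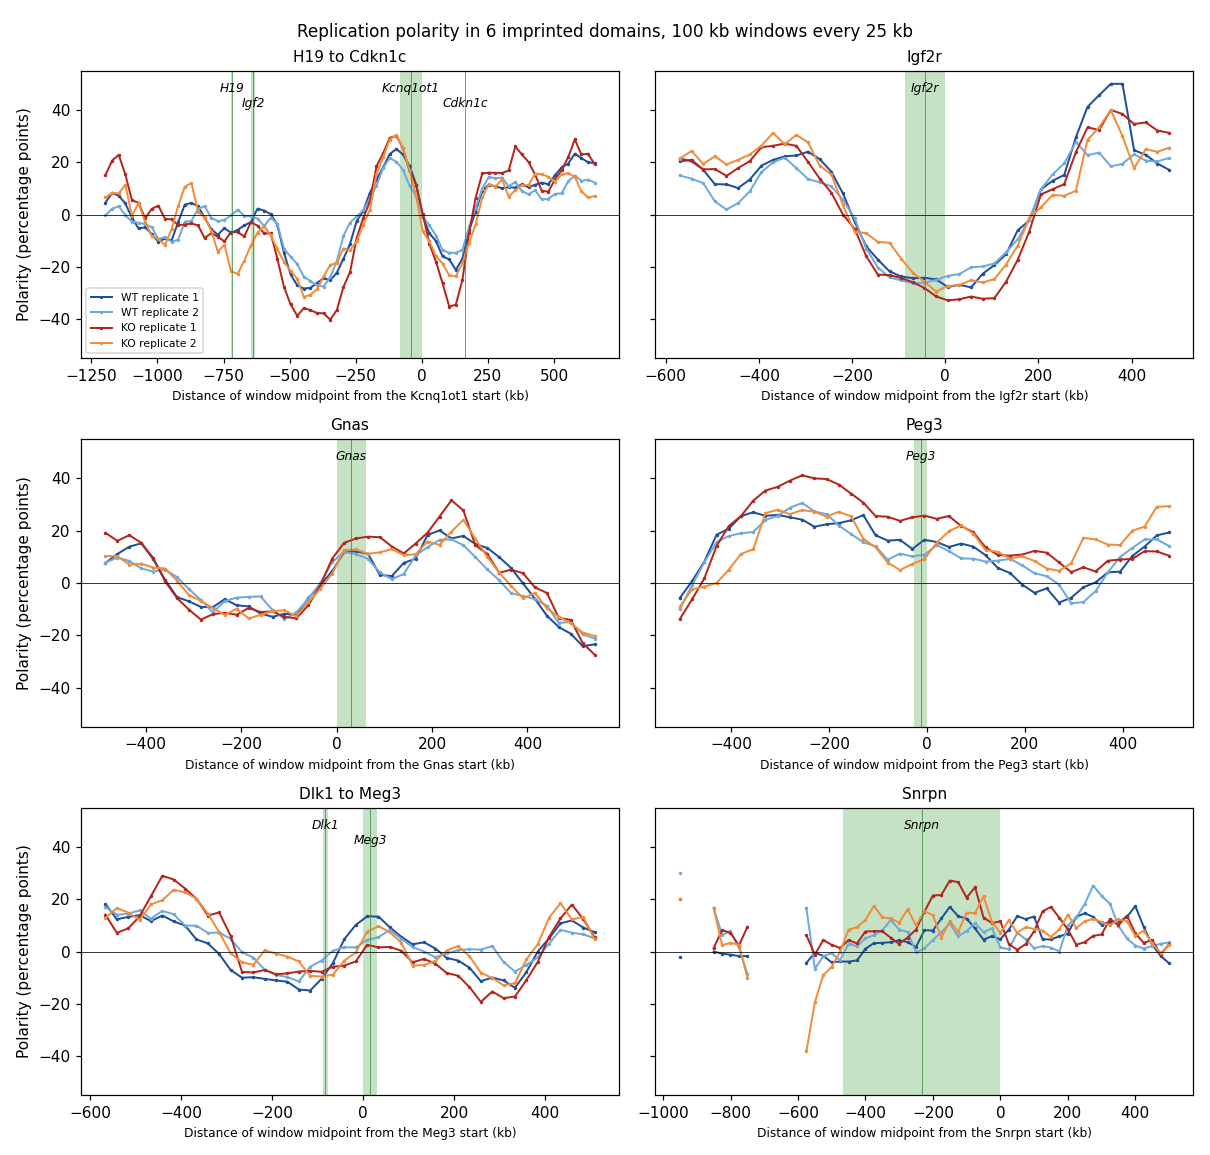
Polarity (vertical axis, percentage points) in 100 kb windows every 25 kb against the distance of the window's midpoint from the start of a member gene (horizontal axis, kb), in 2 WT (blue) and 2 KO (red and orange) libraries. Green bands mark the member genes; in 5 panels the 4 lines follow each other through peaks and troughs, while the Snrpn panel is flat and has gaps where windows had no value in at least 1 library.

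The 10 genes lay from clearly negative to clearly positive polarity. For each gene the window of the 100 kb grid that holds its start was taken, and for H19 and Cdkn1c, whose strand was not in the tables used, the window that holds the whole gene. Among growth factor and receptor, Igf2, a fetal growth factor expressed from the paternal copy, had -2.89 and -0.606 in WT and -2.91 and -11.8 points in KO. Igf2r, the maternally expressed receptor that clears Igf2, had -24.8 and -25.0 in WT and -31.3 and -29.5 points in KO. Igf2 thus lay near balance in 3 of the 4 libraries, whereas Igf2r had the lowest mean of the 10 genes in both genotypes, with both KO values below both WT values. After standardising, the Igf2r libraries overlapped and the difference was 0.0033 SD.

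The long non-coding RNA genes of the set lay on either side of 0. H19, expressed from the maternal copy and sharing enhancers with Igf2, had -5.20 and -2.08 in WT and -10.3 and -11.6 points in KO. Kcnq1ot1, a paternally expressed antisense RNA that silences its neighbours in cis, had 18.6 and 11.0 in WT and 16.7 and 17.1 points in KO. Meg3, expressed from the maternal copy, had 13.5 and 4.40 in WT and 2.55 and 7.55 points in KO. KO was below WT at H19 without overlap, while the genotypes overlapped at Kcnq1ot1 and Meg3.

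The other protein-coding genes ranged from Cdkn1c, below 0, to Peg3, above 0. Cdkn1c, the cell-cycle inhibitor p57, had -16.8 and -13.5 in WT and -25.0 and -18.6 points in KO. Dlk1, a paternally expressed transmembrane protein that restrains differentiation, had -10.4 and -3.46 in WT and -7.78 and -9.56 points in KO. Gnas, which encodes the stimulatory G protein alpha subunit, had -0.928 and 0 in WT and -1.03 and -2.26 points in KO. At its outermost start Gnas was the gene closest to balance in WT, whereas the window at the middle of Gnas had 12.1 and 11.1 in WT and 17.1 and 12.8 points in KO. Dlk1 and Meg3, in adjacent windows, had means of opposite sign in both genotypes.

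Peg3, a paternally expressed zinc finger protein, had 15.7 and 14.5 in WT and 24.6 and 15.4 points in KO. Snrpn, a paternally expressed splicing protein gene whose locus carries long arrays of small nucleolar RNAs, had 4.70 and 1.55 in WT and 11.5 and 7.14 points in KO. Peg3 was high in all 4 libraries, and both KO libraries of Snrpn lay above both WT libraries. Ordered by WT mean, the genes ran from Igf2r (-24.9 ± 0.117 points, SD, n = 2) through Cdkn1c, Dlk1, H19, Igf2, Gnas, Snrpn, Meg3 and Kcnq1ot1 to Peg3 (15.1 ± 0.805 points, SD, n = 2). Of the neighbours in that order, Igf2r and Cdkn1c, Cdkn1c and Dlk1, and Gnas and Snrpn did not overlap between their WT libraries, and the other neighbours did.

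The genotypes did not overlap at 6 of the 10 genes, 5 with lower and 1 with higher polarity in KO, and 44.7% of all windows did not overlap. At Igf2 and Gnas the margin was narrow. KO replicate 1 had -2.91 against -2.89 in WT replicate 1 at Igf2, and -1.03 against -0.928 points at Gnas. H19, Igf2 and Cdkn1c, all lower, share 1 domain. After standardising the genes without overlap were 3, H19 and Cdkn1c lower and Snrpn higher, beside 44.7% of all windows. In the windows at the middle of the genes, on the deposited scale, they were 4, with Igf2 and Cdkn1c lower and Snrpn and Gnas higher, beside 44.6% of the overlapping windows. The direction at Gnas thus differed between its windows, and Snrpn was without overlap in each of the 3 counts. Cdkn1c was too, but its window at the middle is the same as its window in the first count. The same holds for Igf2, Kcnq1ot1, Dlk1 and Meg3, so these genes add nothing new to the count at the middle. None of the 10 windows passed: the lowest limma p-value was 0.121 unadjusted and 0.518 adjusted, at H19, with a difference of -7.32 points (SE 4.52). In the 73 windows of the domains the genotypes did not overlap in 41 (56.16%), with KO above in 23 and below in 18, beside 22.2% and 22.5% of all windows.

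**Figure D2:**
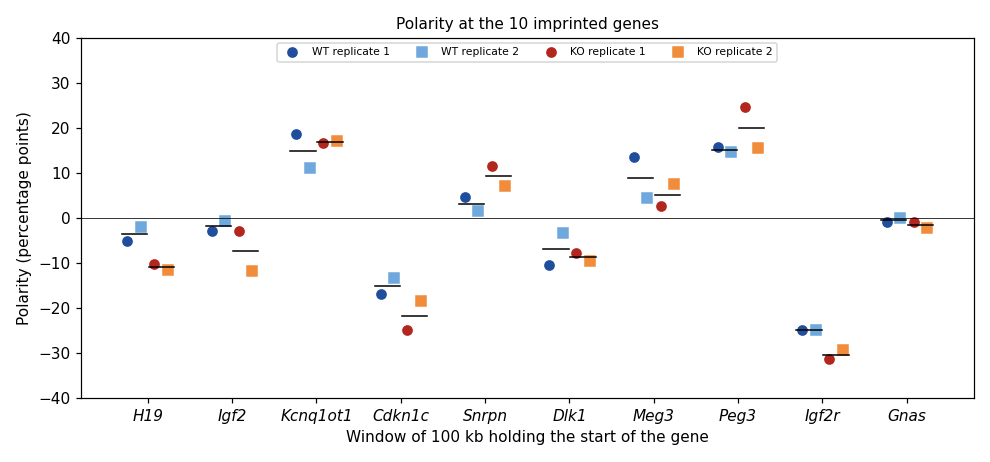
Polarity (vertical axis, percentage points) in the 100 kb window of each of the 10 genes (horizontal axis), with 1 point per library and black bars at the genotype means (n = 2 each). Igf2r is lowest at -24.9 in WT and -30.4 in KO, and Peg3 highest at 15.1 and 20.0.

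The shape of each domain was then described by its transitions. A transition was called on the mean profile of the 4 libraries, after a running mean of 5 windows, where it changed between a local extremum and the next by 1 SD or more. The 6 domains held the midpoints of 14 transitions, 6 rises and 8 falls. None lay in the Snrpn domain. The rises of the domains had a median size of 35.6 points in WT and 48.1 points in KO, against 26.5 and 31.8 points for 2455 rises on the autosomes. The falls had 29.3 and 32.3 points, against 24.5 and 29.0 points for 2437 falls.

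On the autosomes the 2455 rises had a median length of 225 kb and the 2437 falls one of 325 kb. The share of all genes that lie within them was not computed, so the next count gives position only. Of the member genes, 4 start or lie within a transition or at its end, Gnas, Igf2r, Kcnq1ot1 and Cdkn1c. For the first 3 the 250 bases before the start are given to show where the turns lie relative to promoters (RefSeq, GRCm38.p6, 5′ to 3′ on the strand of the gene). Capitals mark the dinucleotide CG, the target of the methylation that marks parental copies, which reads the same on both strands. Gnas is at chr2:174284070-174284319 (plus strand, within a rise), Igf2r at chr17:12769707-12769956 (minus strand, at the trough between a fall and a rise) and Kcnq1ot1 at chr7:143296548-143296797 (minus strand, in a fall).
Gnas: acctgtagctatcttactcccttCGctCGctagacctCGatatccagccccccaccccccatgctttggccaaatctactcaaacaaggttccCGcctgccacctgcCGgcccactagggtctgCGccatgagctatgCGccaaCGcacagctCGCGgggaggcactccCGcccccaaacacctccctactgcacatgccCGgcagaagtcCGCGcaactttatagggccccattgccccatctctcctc
Igf2r: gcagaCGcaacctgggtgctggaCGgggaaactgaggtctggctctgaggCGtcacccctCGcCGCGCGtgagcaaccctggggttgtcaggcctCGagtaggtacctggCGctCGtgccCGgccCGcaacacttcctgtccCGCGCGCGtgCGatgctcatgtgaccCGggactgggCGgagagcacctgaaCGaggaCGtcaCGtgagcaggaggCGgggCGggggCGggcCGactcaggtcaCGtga
Kcnq1ot1: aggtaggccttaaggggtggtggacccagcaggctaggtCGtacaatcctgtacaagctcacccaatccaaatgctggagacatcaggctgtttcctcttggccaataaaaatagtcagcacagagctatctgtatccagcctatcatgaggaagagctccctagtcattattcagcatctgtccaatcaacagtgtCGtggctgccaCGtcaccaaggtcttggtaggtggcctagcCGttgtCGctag

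The letters CG occurred 27 times before Igf2r, 14 times before the outermost Gnas start and 5 times before Kcnq1ot1. Over 32851 promoters of the table the median was 6, 92.13% held at least 1, and 8.56%, 29.36% and 55.58% held at least as many as Igf2r, Gnas and Kcnq1ot1. The 3 promoters thus ranged from CG-rich to about the median of the table. They were chosen because their genes start within a transition or at its end. Of the other matched promoters, that of Meg3 held 10, those of Peg3 and Dlk1 8 each, that of Snrpn 2 and that of Igf2 1. A 100 kb window does not resolve a promoter, so the sequences mark position only. Promoters were matched for 8 of the 10 genes.

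In the domain from H19 to Cdkn1c, 4 transitions followed each other, and H19 and Igf2 lay before the first of them. The first fall, from 142675000 to 142875000 over Ins2, an insulin gene, measured 26.2 and 22.9 in WT and 31.3 and 18.0 points in KO. The KO libraries thus lay on either side of the WT libraries, and the difference of 0.154 points was below the pooled replicate SD of 6.84 points (exact permutation p = 1.0). After standardising, both KO libraries were smaller than both WT libraries, with a difference of -0.360 SD. This fall did not cross 0: smoothed polarity started at -0.621 and -1.66 in WT and at -5.998 and -9.75 points in KO. In the window from 142700001 to 142800000, within this fall, polarity was -3.94 and -3.49 in WT and -16.9 and -13.2 points in KO, the largest difference without overlap among the windows spaced 100 kb in this domain (limma adjusted p = 0.326).

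A rise from 142875000 to 143200000 crossed Th, Ascl2, Tspan32, Cd81, Tssc4 and Trpm5 and ended in Kcnq1, the potassium channel gene that hosts Kcnq1ot1. Its size was 48.4 and 42.1 in WT and 62.3 and 52.5 points in KO. KO exceeded WT without overlap, by 12.2 points against a pooled replicate SD of 5.79 points (exact two-sided permutation p = 0.3333, below which 2 against 2 libraries cannot go). It was 7.30 points without KO replicate 1 and 17.1 points without KO replicate 2. After standardising the libraries overlapped, with a difference of 0.116 SD.

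The fall from 143200000 to 143400000 spans the whole of Kcnq1ot1. Its size was 37.8 and 30.4 in WT and 52.8 and 44.8 points in KO. The difference of 14.7 points against a pooled replicate SD of 5.45 points (exact permutation p = 0.3333) was the largest among the 8 falls, and after standardising it was 0.420 SD with no overlap. The rise from 143400000 to 143625000 holds Cdkn1c, Slc22a18, Phlda2 and Nap1l4, maternally expressed genes among them. It measured 26.9 and 24.9 points in WT, 47.4 in KO replicate 1 and 30.4 in replicate 2 of KO. The KO libraries were higher by 12.9 points (pooled replicate SD 8.55; exact permutation p = 0.3333), with KO replicate 2 close to WT, and by 0.372 SD after standardising. The difference was 4.45 points without KO replicate 1 and 21.4 points without KO replicate 2.

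Igf2r lay at the bottom of a trough of the profile. The fall from 12425000 to 12775000 runs through the whole of Igf2r, and it measured 48.0 and 41.4 in WT and 56.3 and 55.4 points in KO. The KO libraries lay close to each other and above both WT libraries, with a mean difference of 11.2 points (pooled replicate SD 3.35; exact permutation p = 0.3333). After standardising the difference was 0.105 SD and the libraries overlapped.

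From the trough, a rise from 12775000 to 13125000 leads through Mas1, Tcp1, Acat2, Wtap and Sod2. It measured 68.6 and 44.95 in WT and 67.0 and 56.9 points in KO, with the WT libraries farther apart than the KO libraries (difference 5.14 points; pooled replicate SD 12.9; exact permutation p = 1.0). The fall from 13125000 to 13325000 measured 52.4 and 34.0 in WT and 42.9 and 30.9 points in KO, with overlap; after standardising, KO was smaller without overlap (-0.949 SD). In the window of Sod2, from 13000001 to 13100000, polarity was 29.6 and 27.8 in WT and 23.8 and 9.09 points in KO (limma adjusted p = 0.339). Its adjusted p-value in limma ran from 0.00263 to 0.349 over the alternatives with all 4 libraries and windows spaced 100 kb. It moved further when single libraries were left out. In WT replicate 1, 2 windows near the turn between them were at the bound of 50 points, which are the only windows of that library at the bound. In WT replicate 2 polarity in the domain did not exceed 27.8 points. The WT libraries were thus farther apart from each other at this turn than the KO libraries.

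**Figure D3:**
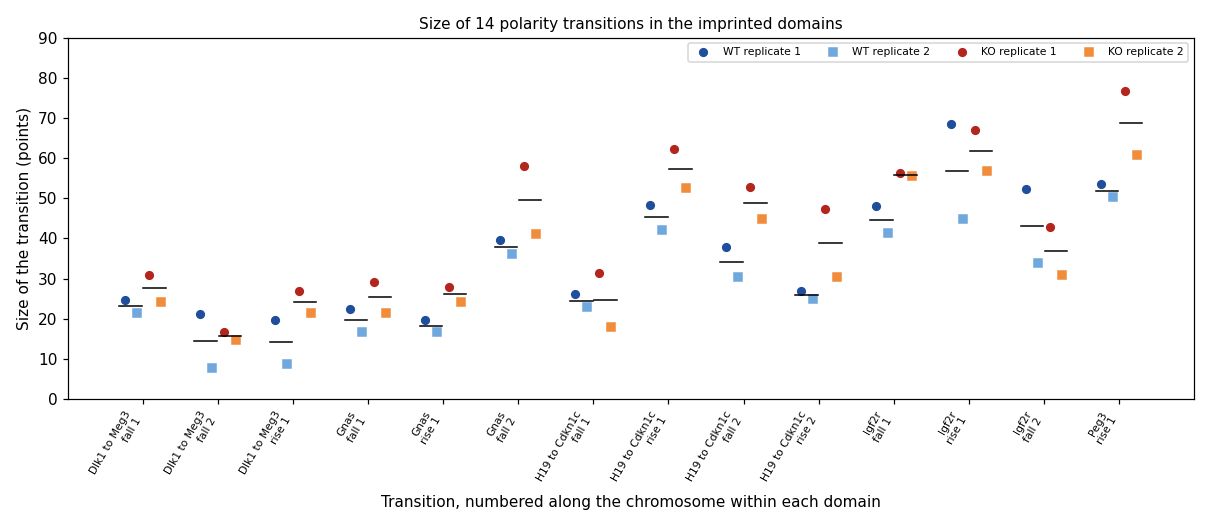
Size (vertical axis, percentage points) of the 14 transitions (horizontal axis, by domain, numbered along the chromosome), with 1 point per library and black bars at genotype means (n = 2 each). Sizes run from 7.73 points for the second fall of Dlk1 to Meg3 in WT replicate 2 to 76.9 points for the Peg3 rise in KO replicate 1.

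The Gnas domain had a rise that overlaps Gnas, flanked by falls. A fall from 173825000 to 174150000, with the genes Stx16 and Npepl1, measured 22.4 and 16.8 in WT and 29.2 and 21.4 points in KO, and the genotypes overlapped (0.0694 SD after standardising). The rise from 174150000 to 174350000 measured 19.6 and 16.7 in WT and 27.9 and 24.2 points in KO. Both KO libraries were above both WT libraries, with a mean difference of 7.88 points, or 0.228 SD after standardising (pooled replicate SD 2.36 points; exact permutation p = 0.3333). The genotypes did not overlap at the upper end, where smoothed polarity was 8.16 and 7.56 in WT and 16.3 and 12.3 points in KO. At the lower end all 4 libraries lay between -11.9 and -9.15 points.

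Downstream, a fall from 174525000 to 174925000 through Zfp831 to Edn3, the gene of endothelin 3, measured 39.7 and 36.1 points in WT, 58.1 in KO replicate 1 and 41.0 in replicate 2 of KO. The difference of 11.7 points (pooled replicate SD 8.72; exact permutation p = 0.3333) was 3.14 points without KO replicate 1 and 20.2 points without KO replicate 2, and 0.143 SD after standardising. At its upper end, in the window of Zfp831, polarity was 18.0 and 14.5 in WT and 27.8 and 24.2 points in KO, the largest difference without overlap among its windows spaced 100 kb (limma adjusted p = 0.398, and 0.513 after standardising, with 0.367 SD).

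The Peg3 domain began with a steep rise, and polarity was positive over Peg3 itself. The rise from 6025000 to 6475000 passes zinc finger genes such as Zfp667 and Zfp583 and ends before Peg3; its first part lies outside the 500 kb limit. It measured 53.5 and 50.3 in WT and 76.9 and 60.7 points in KO. Of the 6 rises it had the largest difference in points, 16.9 against a pooled replicate SD of 8.21 points (exact permutation p = 0.3333), and was without overlap on either scale. After standardising it was 0.276 SD, below the rises at 109850000 (0.416 SD) and 143400000 (0.372 SD), and in points it was 8.82 without KO replicate 1.

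Past Peg3, polarity had a minimum, below 0 in WT and above 0 in KO. In the window from 7000001 to 7100000, which holds the aurora kinase gene Aurkc, polarity was -1.61 and -7.26 in WT and 6.0 and 17.3 points in KO. Of the 73 windows this one had the largest difference, 16.1 points (SE 4.90; limma adjusted p = 0.210), and KO lay above WT without overlap. Over the other fits to all 4 libraries on windows spaced 100 kb its limma adjusted p-value ranged from 0.00643 to 0.109. In the limma fit over all overlapping windows it was 0.228. It also moved when single libraries were left out.

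In the domain from Dlk1 to Meg3 each transition had a mean size below the autosomal median of its kind in both genotypes. The first fall was close to that median, with 23.1 points in WT and 27.7 in KO beside 24.5 and 29.0. The domain holds 60 microRNA genes and 19 small nucleolar RNA genes beside 4 protein-coding genes; such small RNAs are processed there from maternally expressed transcripts downstream of Meg3. A fall from 109100000 to 109400000, upstream of Dlk1, measured 24.6 and 21.5 in WT and 31.0 and 24.3 points in KO. The second fall, from 109575000 to 109850000 over Rtl1, Rian and Mirg, measured 21.2 and 7.73 in WT and 16.6 and 14.8 points in KO, and a separate call of the same transition was made in 1 library, WT replicate 1. The genotypes overlapped at both falls, although after standardising the first was smaller in KO without overlap (-0.0463 SD). At the upper end of the first fall, in the window from 109100001 to 109200000, polarity was 9.93 and 9.92 in WT and 24.1 and 22.6 points in KO. Replicates lay close together there and the genotypes 13.4 points apart (SE 4.49; limma adjusted p = 0.252, and 0.211 after standardising, with 0.673 SD).

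The rise from 109850000 to 110000000 measured 19.7 and 8.84 in WT and 26.9 and 21.6 points in KO. Both KO libraries exceeded both WT libraries by 9.97 points against a pooled replicate SD of 6.05 points (exact permutation p = 0.3333), or 0.416 SD after standardising; without WT replicate 2 the difference was 4.55 points and without WT replicate 1 it was 15.4. It was called separately in 3 libraries and not in WT replicate 2, which had the smallest value.

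The Snrpn domain was flat. Over its 50 windows with a value in all libraries the SD of polarity was 6.46 and 7.52 in WT and 7.24 and 10.0 points in KO, the lowest of the 6 domains in each genotype mean. Mean polarity was 5.36 and 6.54 in WT and 8.93 and 7.32 points in KO, so every library had a small positive mean. The most negative value, -38.2 points in KO replicate 2, was next to the windows without a value, whose midpoints run from 59525000 to 59850000, and the other 3 libraries did not fall below -8.49 points. The highest value, 30.0 points in WT replicate 2, lay at the other edge of that gap. There WT replicate 1 had -2 and both KO libraries had 20 points. Pearson's r between libraries over the 50 windows, a description since overlapping windows are not independent, lay between 0.181 and 0.424. In the other 5 domains r lay between 0.577 (Peg3, WT replicate 1 with KO replicate 2) and 0.971 (Igf2r, between the KO libraries). The windows at both edges of the gap enter the SD, mean and r of the Snrpn domain. Within Snrpn, in the window from 60200001 to 60300000, polarity was 8.02 and 4.42 in WT and 21.4 and 13.8 points in KO, without overlap (limma adjusted p = 0.337). The domain holds 142 small nucleolar RNA genes and 2 protein-coding genes.

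Over the 14 transitions, both KO libraries were larger than both WT libraries in 8 (57.14%) and smaller in 0, beside 40.1% and 5.44% of 4892 transitions on the autosomes. Of the rises 5 were larger in KO, beside 40.9% (6.80% smaller), and of the falls 3, beside 39.3% (4.06% smaller). After standardising these were 6 and 3 of 14, beside 21.6% and 26.8%. The mean size over the 14 was 36.4 and 28.5 in WT and 44.8 and 35.5 points in KO. The difference of 7.71 points was above the pooled replicate SD of 6.08 points, but the genotypes overlapped (exact permutation p = 0.6667). On the standardised scale the mean sizes were 2.49 and 2.22 SD in WT and 2.30 and 2.44 SD in KO, a difference of 0.0199 SD (exact permutation p = 1.0).

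Amplitude and mean were also compared over whole domains. The SD of polarity was higher in KO in all 6 genotype means, but both KO libraries exceeded both WT libraries in 2 of the 6 domains and were both below in 0, beside 44.5% and 2.76% of 2322 tiles of 1 Mb along the autosomes. The domains with larger KO values were H19 to Cdkn1c, with 14.2 and 11.6 in WT and 20.2 and 15.2 points in KO, and Dlk1 to Meg3, with 9.96 and 7.36 in WT and 12.7 and 10.3 points in KO (exact permutation p = 0.3333 for each). The H19 to Cdkn1c difference of 4.75 points was 2.26 points without KO replicate 1 and 7.25 without KO replicate 2. The Dlk1 to Meg3 difference turned to -0.900 points with a flank of 250 kb, and its genotypes overlapped after standardising. The KO to WT ratio of mean SD was 1.37 for H19 to Cdkn1c and between 1.13 and 1.33 for the other domains, and it was 1.24 over the autosomes. After standardising, the H19 to Cdkn1c domain had a higher SD in KO without overlap, 0.973 and 0.904 SD in WT and 1.04 SD in both KO libraries, and the Peg3 domain had a lower one, 0.718 and 0.770 SD in WT and 0.686 and 0.671 SD in KO.

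Mean polarity did not overlap between the genotypes in 4 of the 6 domains, 3 with KO higher and 1 with KO lower, beside 48.5% of the tiles (24.0% higher and 24.5% lower). In the Peg3 domain it was 12.7 and 11.8 in WT and 19.05 and 14.7 points in KO, so that KO was higher by 4.57 points at a pooled replicate SD of 2.24 points (exact permutation p = 0.3333). Without KO replicate 1 that difference was 2.37 points, and with a flank of 1 Mb it was 1.97 points; after standardising it was 0.0979 SD without overlap. It was also higher in KO by 2.18 points in the Snrpn domain, where the genotypes overlapped after standardising (0.0440 SD) and with a flank of 1 Mb (1.60 points) and the difference was 1.37 points without KO replicate 1, and by 1.60 points in the Gnas domain, with 0.621 and 0.0399 in WT and 2.93 and 0.932 points in KO. The Gnas libraries overlapped with windows spaced 100 kb and with a flank of 1 Mb, and the difference was 0.601 points without KO replicate 1. For H19 to Cdkn1c it was -0.00766 and -0.423 in WT and -0.982 and -1.94 points in KO. There KO was lower, with a difference of -1.25 points at a pooled replicate SD of 0.524 points, and each of the 4 means lay near 0. With a flank of 1 Mb the direction turned, to 0.262 points with overlap. In the Dlk1 to Meg3 and Igf2r domains the genotypes overlapped.

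Transitions were also called in each library on its own. In all 6 domains together there were 8 and 8 rises in WT and 6 and 8 in KO (exact permutation p = 1.0), and 10 and 10 falls in WT and 8 and 8 in KO (exact permutation p = 0.3333). The difference in falls was 0.5 with a minimum of 0.5 SD, 0 with a minimum of 15 points and -0.5 with a flank of 1 Mb, each with overlap. On all autosomes there were 2620 and 2703 falls in WT and 2437 and 2758 in KO, with overlap. Of the 14 common transitions, 11 had a rise or fall of their own in all 4 libraries within 100 kb. The H19 to Cdkn1c domain had 2 rises in each library, with 2 falls in each WT and 3 in each KO library, and the Snrpn domain had 1 fall in each WT and 0 in each KO library.

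The position of the transitions was read from the coordinate at which the smoothed profile crosses 0, which 13 of the 14 did in every library. In the rise past Igf2r the crossing was at 12950870 and 12950730 in WT and at 12971567 and 12971067 in KO. Replicates lay 0.14 and 0.50 kb apart and the genotypes 20.5 kb apart, towards higher coordinates in KO. In the rise through Cd81 it was at 143067330 and 143055592 in WT and at 143079921 and 143082440 in KO, 19.7 kb further in KO against a pooled replicate SD of 6.0 kb. In the rise before Peg3 it was at 6243319 and 6254051 in WT and at 6264699 and 6284488 in KO, 25.9 kb further against 11.3 kb. These 3 of the 6 rises thus crossed 0 at a higher coordinate in both KO libraries and 0 at a lower one, beside 21.6% and 23.8% of 1824 rises on the autosomes.

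In the Kcnq1ot1 fall the crossing lay at 143308589 and 143305243 in WT and at lower coordinates in KO, 143299478 and 143294808, a difference of -9.77 kb against a pooled replicate SD of 2.87 kb. The 5′ end of Kcnq1ot1, at 143296547, lies below 3 of these crossings and above that of KO replicate 2. In the fall over Rtl1, Rian and Mirg it was at 109704367 and 109696200 in WT and at 109609571 and 109643668 in KO, where the slope was shallow. At Gnas the crossings of the rise overlapped between genotypes, at 174252606 and 174247493 in WT and 174248532 and 174255932 in KO, all before the gene. The genotypes did not overlap in 6 of the 13 transitions, beside 48.7% of 3518 transitions on the autosomes that cross 0 in all libraries. Of the 13, 4 had both KO crossings at higher and 2 at lower coordinates than both WT crossings, beside 23.2% and 25.5% on the autosomes. The median absolute shift was 15.6 kb in the domains and 17.9 kb over the autosomes, where WT replicates lay a median of 15.1 kb and KO replicates 18.5 kb apart. The crossing is an interpolation between windows of 100 kb spaced 25 kb, and no test of the shifts was made.

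**Figure D4:**
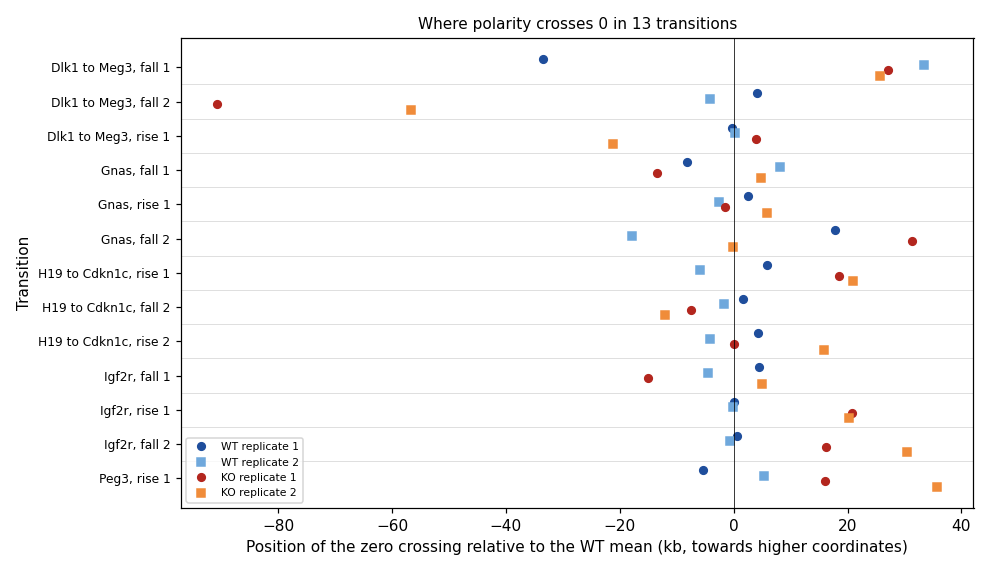
Position at which smoothed polarity crosses 0 in each of 13 transitions (vertical axis), relative to the WT mean (horizontal axis, kb, positive towards higher coordinates), with 1 point per library. In the Igf2r rise both KO libraries lie about 20.5 kb to the right of both WT libraries; in the Gnas rise the libraries overlap.

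The distance between whole profiles was compared within and between genotypes. Over the 295 windows, the root mean square difference was 6.32 points between the WT libraries and 8.51 points between the KO libraries, and it averaged 8.19 points over the 4 pairs of different genotype. The ratio of the mean between to the mean within genotypes was 1.10, and over the autosomes it was 1.19. By domain it ran from 0.998 for Snrpn to 1.29 for Dlk1 to Meg3. Pairs share libraries and the domains were not tested against the autosomes, so these ratios are a description.

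Other imprinted genes were read from the same fit. A list of 51 genes was matched to RefSeq, 22 of them inside the 6 domains and 29 outside, in 22 windows. Of those 22 windows 0 had a limma adjusted p-value under 0.05 and 5 had an unadjusted one, 2 higher and 3 lower in KO, beside 12.2% of all windows, and of the windows of listed genes inside the domains 0 passed either threshold. The lowest adjusted p-value was 0.184, in the window of Mest, a paternally expressed gene on chromosome 6 named here after its values were seen, with 14.1 and 10.1 in WT and 24.0 and 33.5 points in KO.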

How the data were processed

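TrAEL-seq libraries of 2 WT and 2 KO cultures were read as deposited. The column names show alignment by bowtie2 to GRCm38 plus rRNA and removal of duplicates in each library, per the file headers; Trim Galore 0.6.5 and Bowtie2 2.4.1 are named in the submitters' processing notes. The deposited value is a score, a signed strand imbalance in points with a bound of 50; the program, which strand is positive and whether a read minimum was set are not given in the sources used here. The depth of each library is unknown, so no interval or detection floor was computed.

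Full-length autosomal windows with values in all 4 libraries were used. Windows spaced 100 kb were fitted in R 4.3.3 with limma 3.58.1 (lmFit, eBayes; Benjamini-Hochberg over 23672 windows; threshold 0.05), after a test on simulated data; values per library with exact two-sided permutation tests, which cannot go below 0.3333 for 2 against 2 libraries. Genes came from a RefSeq table of GRCm38.p6. Named were the 10 genes, each transition in a domain and the window with the largest difference without overlap per domain. Alternatives were other flanks (250 kb, 1 Mb), spacings, running means and minimum changes, standardising, the block of replicate numbers, eBayes with trend and robust, and leaving out each library. Members, lists and tests were chosen with earlier results of these data known, and the zero crossing was added after the profiles were seen. Tables were handled in Python 3.11.15 (pandas 2.3.3, numpy 2.4.6) and figures drawn with matplotlib 3.10.9.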

Additional observations from a re-analysis of the deposited data

How the results depend on the processing

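Against 0 called windows in the domains, limma called 1 with the replicate block (630 of all windows, 2.66%), 2 with the block and standardising (3.62% of all), 1 with trend and robust options (1.28% of all) and 0 with overlapping windows, standardising or another flank; leaving out a library gave 0 to 12 (5.79% of all windows without KO replicate 1 and 20.2% without KO replicate 2, which gave the 12). The Peg3 window from 7000001 was called with each of the block fits and with trend and robust, and the Igf2r window from 13000001 with the block and standardising. The replicate numbers are shared by the genotypes, but only as numbers: deviations of same-numbered libraries correlated at 0.241 on the deposited scale and 0.0158 after standardising. Unadjusted calls numbered 5 with a 250 kb flank, 19 with 1 Mb and 30 over overlapping windows, as fewer or more windows were tested, and 1 to 22 without a library.

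Member genes whose genotypes did not overlap numbered 3 after standardising and 4 at the middle of the gene, both chosen after seeing the data, against 6. Differences in mean polarity reversed for Dlk1 to Meg3 to -1.51 (250 kb flank) and -1.59 points (1 Mb), for Igf2r to -2.09 and -0.299 points and for H19 to Cdkn1c to 0.262 points (1 Mb); without a library they ran from -0.828 to 1.72, -1.02 to 2.93 and -1.73 to -0.767 points. Differences in SD reversed to -0.900 points for Dlk1 to Meg3 (250 kb) and -0.273 points for Snrpn (windows spaced 100 kb), and after standardising, which divides amplitude out, to -0.0991 SD for Igf2r, -0.0248 SD for Gnas and -0.0654 SD for Peg3 (-0.446 to 3.16 points without a library). Standardising reversed transition sizes to -0.360 SD at 142675000, -0.0463 SD at 109100000, -0.0915 SD at 109575000 and -0.418 SD at 12775000, and a running mean of 9 windows gave -1.40 points at 142675000 and -2.03 points at 109575000. Without a library the sizes ran from -6.49 to 6.80 points at 142675000, -5.53 to 7.95 at 109575000, -6.68 to 17.0 at 12775000 and -15.5 to 2.94 at 13125000; the other 10 transitions kept the direction of their difference without each library in turn. The mean size over all 14 kept its direction, with 3.08 to 12.3 points without a library. The difference in number of rises was 0.5 with a minimum of 15 points (-2 to 0 without a library), and in falls 0.5 with 0.5 SD and 0 with 15 points (-2 throughout without a library). The ratio of profile distances ran from 0.904 to 1.37 without a library. The cause was not tested. No permutation test of this design could pass 0.05, so none shows stability.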
